A study of Homo sapiens with 2 samples.

Results

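The heat-shock proteins and DNAJ co-chaperones were taken as the genes whose name on the array starts with HSPA, HSPB, DNAJA, DNAJB or DNAJC and a digit, with HSPD1, HSPE1 or HSPH1, or with HSP90. The choice read gene names and no measured value. It took 116 of the 34127 gene probes, and 83 of the 25940 gene names. These were 14 HSP70 genes (HSPA), HSPH1 of the HSP110 family, 3 HSP90 genes, 8 small heat-shock protein genes (HSPB), the chaperonin genes HSPD1 and HSPE1, 4 DNAJA, 13 DNAJB and 28 DNAJC genes, 8 further genes named as HSP90 or DNAJ pseudogenes and 2 antisense transcripts. All 83 names were found in the RefSeq gene table of GRCh38.p14, which classes 72 as protein-coding, 9 as pseudogenes and 2 as long non-coding RNA. HSPB11 is listed there as IFT25, a protein of cilia, and stayed in because its array name fits.

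HSP70 proteins bind short hydrophobic stretches of unfolded proteins and release them in a cycle driven by ATP. DNAJ proteins, also called HSP40, deliver clients to HSP70 and start its ATP hydrolysis, HSPH1 exchanges the nucleotide, and HSP90 takes over clients that are close to their final fold. Small heat-shock proteins hold unfolded proteins without ATP. Each compartment has its own set: HSPA8, HSP90AA1 and HSP90AB1 work in the cytosol, HSPA5 (BiP) and HSP90B1 (GRP94) in the endoplasmic reticulum (ER), and HSPA9 (mortalin) with the HSPD1 and HSPE1 folding chamber in mitochondria. Heat and other protein damage act through the transcription factor HSF1 on the cytosolic set, and misfolded protein in the ER acts on the ER set through ATF6 and XBP1.

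The study asked which genes respond to loss of SET7/9 (gene SETD7), a lysine methyltransferase, in gastric cancer cells. MKN74 and MKN45 are established lines of human gastric carcinoma. In each line, cells electroporated with 50 nM SET7/9 siRNA were compared with cells that received 50 nM negative control siRNA, 48 hrs after transfection, on 1 two-colour array per line. The SET7/9 siRNA cells were labelled with Cy5 and the control cells with Cy3 on both arrays, so that dye and treatment cannot be told apart, and electroporation and siRNA were shared by all 4 RNA samples. Which SET7/9 siRNA was used for the arrays is not given in the sources used here. The log2 ratio below is Cy5 over Cy3, above 0 where the level was higher with SET7/9 siRNA. Its error is the one the scanner software's error model gives for a probe, near 0.20 for bright probes, and is no replicate error. With 1 array per line and no repeat, the number of arrays limits the precision of all that follows.

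At 1 probe for SETD7 the log2 ratio was -2.03 (error 0.28) in MKN74 and -1.95 (error 0.28) in MKN45. A second SETD7 probe was at 0.24 (error 0.22) and -0.23 (error 0.21). All 5 epithelial marker genes (EPCAM, CDH1, KRT8, KRT18 and KRT19) were well above background in the control channel of both arrays. Of 5 markers of other cell types, 1 was above background in MKN74 (COL1A1) and 4 in MKN45 (VIM, COL1A1, PTPRC and PECAM1), the latter at Cy3 intensities no higher than 47.4. No gene spot was saturated. Over probes printed 10 times, the pooled SD of the log2 ratio between spots was 0.087 in MKN74 and 0.099 in MKN45.

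The sequences below were chosen because the results turn on them. The first pair shows the start (30 bases) of the probes for HSPA1A and HSPA1B, neighbouring genes that encode the same inducible HSP70 protein, whose control levels are set side by side further down. On GRCh37, the HSPA1A probe lies at chr6:31785491-31785550 and the HSPA1B probe at chr6:31797870-31797929, both on the plus strand, and the longest run of bases that the whole probes share is 7.
HSPA1A probe: gagcttcaagactttgcatttcctagtatt
HSPA1B probe: gtttcgttccctttaaatgaatcaacactg
A second pair of probes, for HSP90B1 (chr12:104337650-104340452 of GRCh37) and its pseudogene HSP90B3P (chr1:92109276-92109335), share a run of 30 of their 60 bases, in capitals. Their values were not independent readings of 2 genes, and how much HSP90B1 RNA bound to the pseudogene probe was not tested.
HSP90B1 probe: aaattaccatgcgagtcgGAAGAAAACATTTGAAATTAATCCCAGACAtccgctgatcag
HSP90B3P probe: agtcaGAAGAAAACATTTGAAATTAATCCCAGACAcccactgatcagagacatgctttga

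Promoters are shown because the lists of heat-shock factor targets and ER stress chaperones, described below, are named for factors that bind such elements. RefSeq promoters of GRCh38.p14, 250 bases before to 50 after each gene's start, were searched on both strands for a strict heat-shock element (3 units of GAA and TTC in alternation, starting with either, with NN between units; 2 such matches can overlap) and for the ER stress response element (CCAAT and CCACG with 9 bases between). The heat-shock element was found in 6 of 13 heat-shock factor target genes and in 0.49% of the 35116 promoters of the table. HSPD1 was the 1 of 4 core mitochondrial chaperones that held it. The ER stress response element was found in 2 of 6 ER stress chaperones and in 0.0769% of the promoters. Lists were counted by gene, with a match in any of its promoters, and the table by promoter, so that the shares are not in the same unit. Most genes of each list held neither. A match is a description of letters and not a bound site. The matches, in capitals, lie before the start of HSPA8 (chr11:123062169-123062201, minus strand), HSPA6 (chr1:161524456-161524488, plus strand), HSPA5 (chr9:125241381-125241419, minus strand) and HSP90B1 (chr12:103930206-103930244, plus strand).
HSPA8: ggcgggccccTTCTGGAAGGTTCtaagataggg
HSPA6: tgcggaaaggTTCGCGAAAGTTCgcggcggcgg
HSPA5: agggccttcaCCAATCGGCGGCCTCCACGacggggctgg
HSP90B1: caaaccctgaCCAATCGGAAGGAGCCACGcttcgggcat

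With SET7/9 siRNA, no chaperone probe that was measured in both channels passed 1.5-fold in either line. Probes entered where Cy5, Cy3 or both stood well above background on 50% or more of their spots. This left 91 of the 116 member probes in MKN74 and 96 in MKN45, and both channels were above background for 83 and 91 of these. The 17 probes kept on neither array included every probe of 12 genes, such as HSPB2, HSPB3 and HSPB7, small heat-shock proteins of muscle. Among the probes measured in both channels, log2 ratios ran from -0.34 (DNAJC16) to 0.50 (HSPB8) in MKN74 and from -0.40 (DNAJB13) to 0.51 (DNAJC3) in MKN45. The cutoff is 0.58 on this scale. In the same class of probes, 1.45% of the array was past 1.5-fold on the lower side and 0.64% on the higher side in MKN74, and 1.62% and 0.814% in MKN45. At such shares few of 83 or 91 probes would be called, and a count of 0 does not set the chaperones apart. The median absolute log2 ratio of the chaperone probes was 0.106 in MKN74 and 0.0997 in MKN45, against 0.118 and 0.121 over all probes. The SD of their ratios was 0.154 and 0.155 against 0.221 and 0.232. Ratios beyond their error made up 19.3% of these chaperone probes in MKN74 and 14.3% in MKN45. Over all probes measured in both channels the shares were 23.3% and 24.1%. A ratio given below as beyond its error therefore says nothing particular to chaperones.

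In MKN74, 3 called probes appeared when probes above background in 1 channel were added, all higher with SET7/9 siRNA and all too dim in Cy3 for a measured fold. Their ratios were 0.89 (error 0.76) at a DNAJC14 probe, 0.77 (error 0.50) at the DNAJC28 probe and 0.73 (error 0.43) at an HSPA8 probe. DNAJC14 is an ER membrane protein, DNAJC28 a little studied DNAJ protein listed with mitochondria, and HSPA8 the constitutive HSP70 of the cytosol. With Cy3 raised to the dimmest signal that counts as above background, the HSPA8 probe was at least 1.44-fold higher and no bound above 1-fold was left for the other probes. After normexp background correction and loess the log2 ratio of that HSPA8 probe was 0.26, smaller than the bound, which does not hold under that setting. In MKN45 the same probes were at 0.085, 0.22 and 0.15. The other probe of DNAJC14 was at -0.13 (error 0.20) in MKN74, those of HSPA8 at 0.031 (error 0.20) and 0.37 (error 0.30). These 3 higher probes of 91 stand beside 3.78% of all kept probes in MKN74, and the 0 lower ones beside 1.76%. In MKN45, 0 of 96 chaperone probes were called in either direction, beside 4.81% higher and 1.97% lower over all kept probes. None of the 88 chaperone probes kept on both arrays was past 1.5-fold in the same direction in both lines, where 0.75% of all such probes were higher and 0.373% lower.

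**Figure D1:**
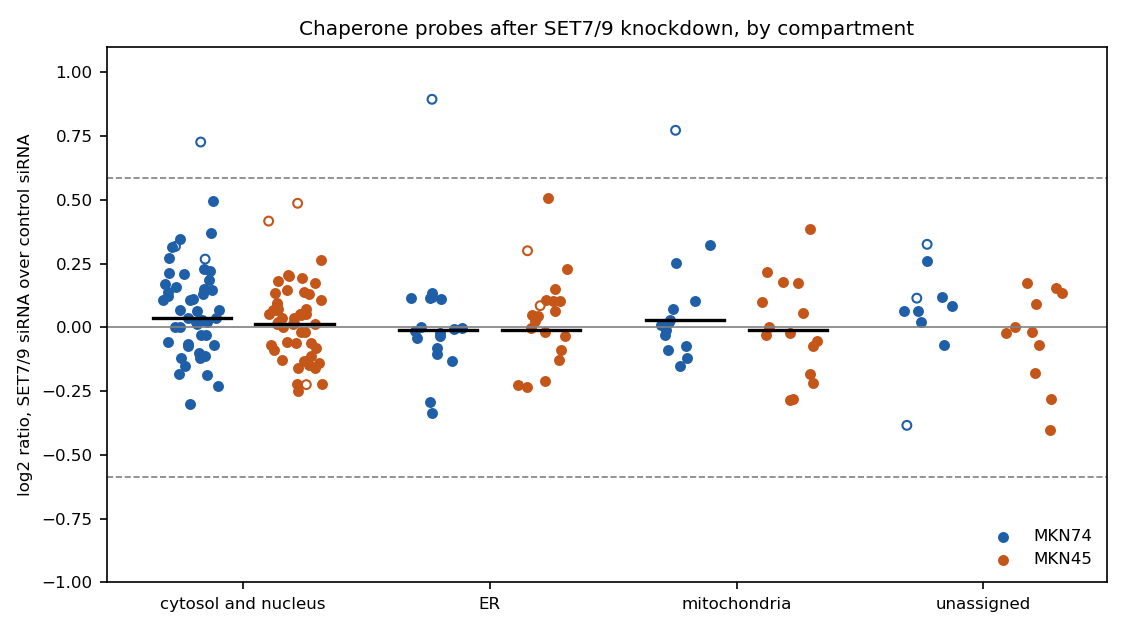
Log2 ratio of Cy5 (SET7/9 siRNA) over Cy3 (control siRNA) for each kept chaperone probe, by compartment and cell line (1 array each). Filled points are above background in both channels and open points in 1, black bars are medians over genes with 1 probe each, and dashed lines mark 1.5-fold: every filled point lies between the lines, and 3 open MKN74 points lie above.

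Compartments were compared with 1 probe per gene, the brightest kept one. The median log2 ratio of the cytosolic and nuclear chaperones was 0.038 in MKN74 (34 genes) and 0.015 in MKN45 (35 genes). The ER chaperones were at -0.0094 and -0.0090 (14 genes in each line), and the mitochondrial ones at 0.027 (9 genes) and -0.010 (10 genes). Over all genes, counted in the same way, the median was 0.0045 and 0.015. The cytosolic median was above the ER median by 0.047 in MKN74 and 0.024 in MKN45, and above the mitochondrial median by 0.011 and 0.025. Without dye normalization the gap to mitochondria turned to -0.11 in MKN74 and -0.0017 in MKN45, while the gap to the ER stayed above 0 (0.10 and 0.076).

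All 13 heat-shock factor targets had a kept probe in each line, and 0 of the 19 probes measured in both channels in MKN74 and 0 of the 20 in MKN45 passed 1.5-fold. The shares of 1.45% and 0.64%, and of 1.62% and 0.814%, over all such probes leave few or no calls for a list of this size, so that the counts say nothing particular to it. The median over the genes was 0.14 in MKN74, with 12 genes above 0 and DNAJB4 below, and 0.039 in MKN45, with 10 above 0 and 3 below. Over the 12 genes measured in both channels it was 0.087 and 0.046. After normexp background correction and loess the medians were 0.043 and 0.051, and before dye normalization 0.16 and 0.066, with 10 genes above 0 and 3 below in each line under either. This list and its members were chosen with these data known, so that the counts carry no test.

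HSPA1A and HSPA1B, the inducible HSP70 genes, had nearly equal signals in both channels. Over its 10 spots, the HSPA1A probe had Cy3 from 30.8 to 44.1 and Cy5 from 35.6 to 45.1 in MKN74, and Cy3 from 5524 to 5854 and Cy5 from 5544 to 5890 in MKN45, so that the channels overlapped in both lines. Its ratio was 0.038 (spot SD 0.16) in MKN74 and 0.0028 (spot SD 0.020) in MKN45. HSPA1B had Cy3 and Cy5 intensities of 2987 and 2989 in MKN74 and of 4473 and 4595 in MKN45, with ratios of 0.0010 and 0.039. HSPA6, an HSP70 that is nearly silent without stress, was not well above background in Cy3 at any of its 3 probes in either line. DNAJB1, the main stress-induced partner of HSP70, was at 0.021 and 0.053 (errors 0.20), with Cy3 intensities of 2646 and 836.

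All 7 probes of the cytosolic HSP90 and HSP110 genes had ratios above 0 in MKN74, and 5 of the 7 in MKN45. Of all chaperone probes measured in both channels, 50 of 83 in MKN74 and 51 of 91 in MKN45 were above 0. With normexp and loess the lowest HSP90AA1 probe of MKN74 was at -0.052. In MKN74 the 3 HSP90AA1 probes were at 0.020, 0.11 and 0.17, the 2 HSP90AB1 probes at 0.15 and 0.21, and the 2 HSPH1 probes at 0.15 and 0.22. In MKN45 they were at -0.069, -0.058 and 0.052 for HSP90AA1, at 0.072 and 0.098 for HSP90AB1, and at 0.015 and 0.016 for HSPH1. Errors were 0.20 for each of these probes, and a test between the lines was not possible with 1 array each. At the brightest HSP90AA1 probe, Cy3 and Cy5 were 51835 and 58326 in MKN74 and 81096 and 77324 in MKN45. Before dye normalization that probe was at 0.67 in MKN74, past the cutoff.

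Among the other HSP70 genes, HSPA2, the testis-enriched member, was at -0.10 and 0.11. HSPA4, an HSP110-like exchange factor, was at 0.069 and 0.072 at its bright probe. HSPA14, which works at the ribosome, was at -0.028 and 0.070. Over HSP70 genes the median was 0.034 in MKN74 (12 genes, 8 above 0) and 0.039 in MKN45 (13 genes, 10 above 0).

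HSPB1 (HSP27), the small heat-shock protein of epithelia, had Cy3 and Cy5 of 13213 and 15424 in MKN74 and of 7025 and 7741 in MKN45 at its bright probe, with ratios of 0.22 (error 0.20) and 0.14 (error 0.20). Its dimmer probe went the other way, at -0.063 and -0.13. HSPB8, which sends misfolded proteins to autophagy with BAG3, had Cy3 and Cy5 intensities of 24.5 and 34.6 in MKN74, close to the background, with the highest ratio of MKN74 among chaperones measured in both channels (0.50, error 0.30). It was not above background in MKN45.

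Cytosolic DNAJ genes gave small ratios of both signs. DNAJA1, a farnesylated partner of HSPA8, had Cy3 and Cy5 of 5874 and 6461 in MKN74 and of 1947 and 2243 in MKN45, with ratios of 0.14 and 0.20 (errors 0.20). DNAJB4 had Cy3 and Cy5 of 92.8 and 75.3 in MKN74 and of 19.7 and 20.2 in MKN45, with ratios of -0.30 (error 0.22) and 0.037 (error 0.35). DNAJC6 (auxilin), which uncoats clathrin vesicles in neurons, was at 0.35 (error 0.21) in MKN74 and not above background in MKN45. DNAJC27, a protein with a Rab-like domain, was at 0.27 (error 0.23) at 1 probe in MKN45 and at 0.14 (error 0.31) at the other. DNAJB13, a protein of sperm flagella and cilia, was the lowest in MKN45 at -0.40 (error 0.25), with intensities of 45.6 and 34.5. It was at -0.38 (error 0.44) in MKN74, where Cy3 was not above background.

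**Figure D2:**
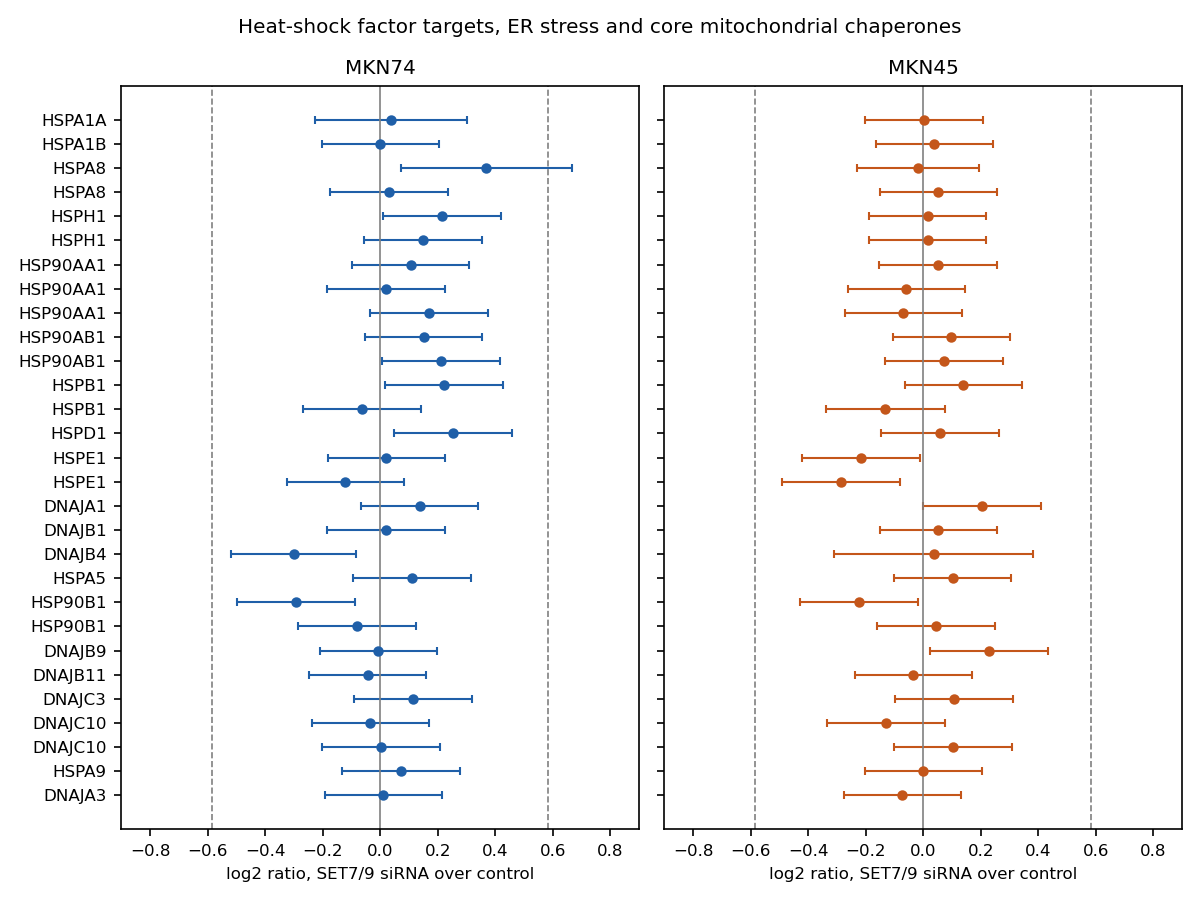
Log2 ratio of Cy5 (SET7/9 siRNA) over Cy3 (control siRNA) with the scanner software's error for the probes of the heat-shock factor targets, ER stress chaperones and core mitochondrial chaperones measured in both channels on both arrays, 1 row per probe. Dashed lines mark 1.5-fold, and no point reaches them in MKN74 or MKN45.

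Of the ER stress chaperones, 0 of 8 probes in MKN74 and 0 of 9 in MKN45 passed 1.5-fold, where no more than 1.62% of all such probes were called in 1 direction, and in each line 3 genes were above 0 and 3 below. The median was -0.0013 and 0.034. HSPA5 (BiP), the HSP70 of the ER, had Cy3 and Cy5 intensities of 1398 and 1510 in MKN74 and of 1536 and 1649 in MKN45, with ratios of 0.11 and 0.10 (errors 0.20). HSP90B1 (GRP94), the HSP90 of the ER, had a ratio below 0 by slightly more than its error in both lines at its bright probe, and the direction turned without dye normalization. Cy3 and Cy5 were 32449 and 26488 in MKN74 and 48808 and 41781 in MKN45, and the ratios -0.29 (error 0.21) and -0.22 (error 0.21). Before dye normalization they were 0.071 and 0.10. The dim HSP90B1 probe, printed above, was at -0.081 and 0.045, and the pseudogene probe that shares its run at -0.068 and 0.13. With normexp and loess the mean of the bright probe over both lines was -0.11 in place of -0.26.

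The DNAJ partners of BiP also stayed within 1.5-fold. DNAJB9 (ERdj4), which hands misfolded proteins to degradation, had a ratio of -0.0063 in MKN74 and of 0.23 in MKN45 (errors 0.20 and 0.21). DNAJB11 (ERdj3), a soluble partner of BiP, was at -0.043 and -0.034. DNAJC10 (ERdj5), a disulphide reductase, had 2 probes at -0.034 and 0.0037 in MKN74 and at -0.13 and 0.10 in MKN45. DNAJC3 (p58IPK), which inhibits the kinase PERK, was at 0.11 in both lines at its bright probe, where Cy3 was 422 in MKN74 and 1761 in MKN45. The dim DNAJC3 probe gave the highest ratio among chaperones measured in both channels in MKN45, 0.51 (error 0.26), at intensities of 30.2 and 43.0, and was not above background in MKN74. DNAJC16, an ER membrane protein, was the lowest in MKN74 at -0.34 (error 0.21), with 367 and 291, and at 0.048 (error 0.20) in MKN45.

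The core mitochondrial chaperones had 0 of 5 probes past 1.5-fold in each line, a list too short to read against a share of 1.62% or less. HSPD1 (HSP60), the chamber, had Cy3 and Cy5 of 66884 and 79680 in MKN74 and of 84145 and 87598 in MKN45, with ratios of 0.25 (error 0.21) and 0.058 (error 0.20). Before dye normalization the MKN74 ratio was 0.69, past the cutoff, and with normexp and loess 0.32. HSPE1 (HSP10), the lid of the chamber, had its 2 overlapping probes at 0.022 and -0.12 in MKN74 and at -0.22 and -0.29 in MKN45, where both were below 0 by more than their errors of 0.20 and 0.21. Before dye normalization the HSPE1 probes were at 0.31 and 0.18 in MKN74 and at 0.0021 and -0.089 in MKN45. HSPA9 (mortalin), the HSP70 of the matrix, was at 0.073 and 0.00024. DNAJA3, its DNAJ partner, was printed 10 times and was at 0.011 (spot SD 0.021) in MKN74 and -0.072 (spot SD 0.035) in MKN45.

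The other mitochondrial DNAJ genes included DNAJC28, given above with the called probes, and DNAJC30, whose dim probe lay beyond its error in both lines. DNAJC19, a subunit tied to the protein import motor, had 2 probes at -0.15 and 0.10 in MKN74 and at -0.18 and -0.053 in MKN45. DNAJC15, a related import protein, was above background in MKN45 alone, at 0.17 (error 0.20). A dim DNAJC30 probe was at 0.33 (error 0.22) and 0.39 (error 0.21), and the brighter one at -0.087 and -0.021. DNAJC4 was at -0.028 and -0.28 at its dim probe and at 0.027 and 0.10 at its brighter one.

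Probes of 1 gene often disagreed in sign. Of the member genes with more than 1 kept probe, 13 of 22 in MKN74 and 10 of 24 in MKN45 had all probes on the same side of 0. The median distance between the highest and the lowest probe of a gene was 0.11 in MKN74 and 0.19 in MKN45. The widest distance was 1.03, at DNAJC14 in MKN74, between the dim and the bright probe given above, and DNAJC14 was the sole gene of either line with a probe past 1.5-fold and another on the other side of 0. In MKN45 the widest was 0.64 at HSPA6, whose probes at -0.22 and 0.42 were above background in Cy5 but not in Cy3. Among genes with probes measured in both channels, 12 of 20 and 9 of 21 shared a sign, with widest distances of 0.42 (DNAJB6) and 0.41 (DNAJC30).

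**Figure D3:**
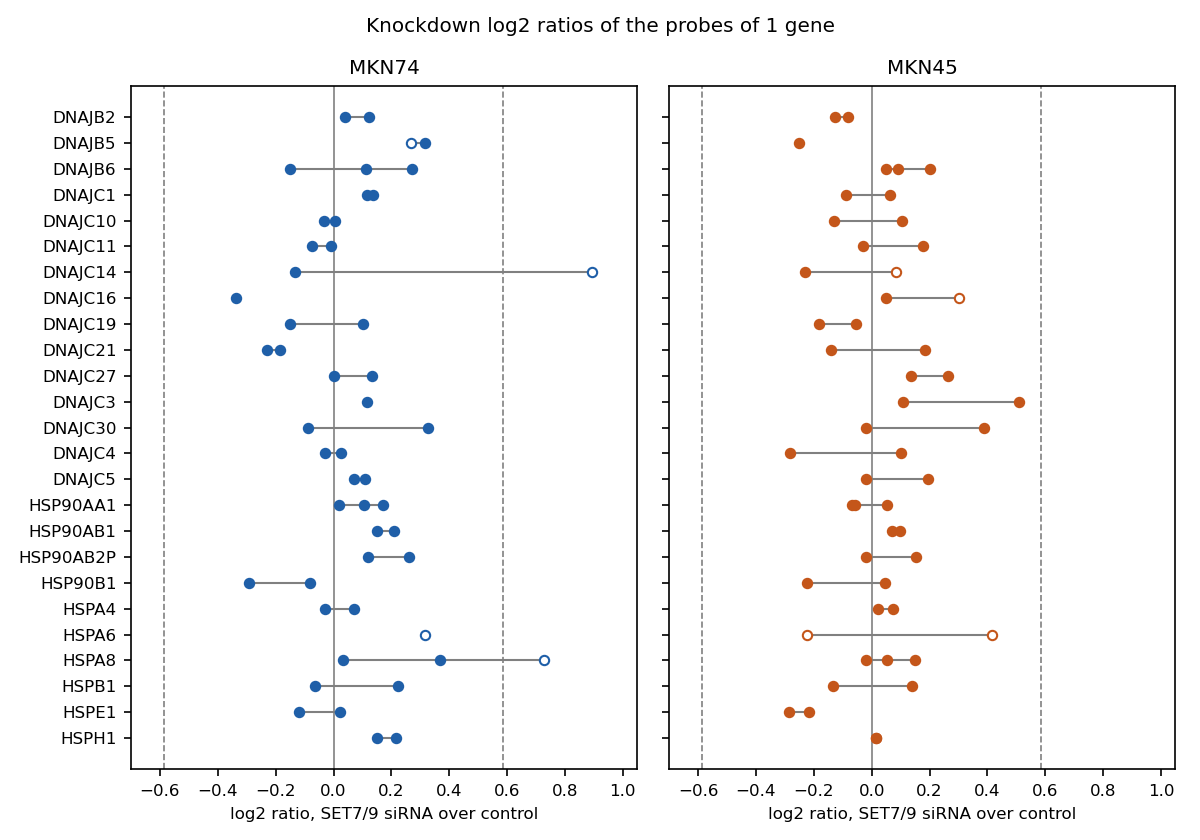
Log2 ratios of Cy5 (SET7/9 siRNA) over Cy3 (control siRNA) of the kept probes of each chaperone gene with more than 1 kept probe in either line, joined by a line. Filled points are above background in both channels, open points in 1, and dashed lines mark 1.5-fold: the 2 widest gaps of MKN74, at DNAJC14 and HSPA8, each end at an open point.

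Partners and regulators of the chaperones outside the 83 names were counted over kept probes, of which 3.78% were higher and 1.76% lower in MKN74 and 4.81% and 1.97% in MKN45. Of the heat-shock factors and co-chaperones (HSF1, BAG, STIP1, CDC37, FKBP and others, 24 of 25 names on the array), 0 probes were past 1.5-fold in MKN45 and 1 in MKN74, CRYAB, a small heat-shock protein, at 0.67 (error 0.52) with Cy3 not above background. HSF1, which drives the heat-shock response, was at 0.099, -0.11 and -0.051 at its 3 probes in MKN74 and at 0.077, -0.092 and 0.065 in MKN45. Of the 8 subunits of the cytosolic chaperonin TRiC, 0 passed in either line. Of 23 further ER and mitochondrial folding genes, 0 passed, and the lowest in MKN74 was PDIA4, a disulphide isomerase of the ER, at -0.38 (error 0.21), and -0.38 (error 0.21) in MKN45.

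A response common to both lines could be tested with limma, both arrays taken as replicates against 0 with 1 residual degree of freedom. After Benjamini-Hochberg adjustment over the 19595 probes kept on both arrays, 0 of 88 chaperone probes passed 0.05, and the share over all probes was 0%. The lowest adjusted p by limma among the chaperones was 0.355, shared by DNAJB13 (mean -0.39) and the dim DNAJC30 probe (mean 0.36), both of the same sign in 2 of 2 lines. Without adjustment 5 of 88 chaperone probes (5.68%) were under 0.05, against 13.1% of all probes. With normexp and loess, 5 chaperone probes passed after adjustment, beside 1708 of all probes. Above 0 were the probes of DNAJA1 (mean 0.30, adjusted p = 0.0169 by limma) and HSPD1, the dim DNAJC30 probe and the brightest HSP90AA1 probe. Below 0 was that of DNAJC2, a ribosome-bound DNAJ protein, and the means ran from -0.23 to 0.30. The brighter DNAJC30 probe did not pass (mean 0.026), nor did the other HSP90AA1 probes (means 0.10 and -0.087).

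Between the lines themselves, the control level of many chaperones differed by 1.5-fold or more, about as often as over all probes. This compares 1 dye across 2 arrays and so includes differences between arrays. It cannot be set directly against the siRNA ratio, which was taken within 1 array. Cy3 held the control siRNA on both arrays, and its signal was scaled across arrays. Of 93 chaperone probes above background in Cy3 on 1 array or both, 28 were lower by 1.5-fold or more in MKN45 than in MKN74 and 28 higher, beside 32.6% lower and 26.1% higher over all probes. With 75th percentile scaling, which moved the median difference over all probes from -0.085 to 0.15, the chaperone counts were 24 lower and 33 higher. Over all 21610 probes 5820 were then lower and 7313 higher. The median absolute log2 difference was 0.74 over chaperones and 0.81 over all probes. With 1 array per line there was no test, and fewer cells with an RNA cannot be told apart from less RNA per cell.

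HSPA1A showed the largest gap among the chaperone probes measured in both lines. Its 10 control spots lay between 30.8 and 44.1 in MKN74 and between 5524 and 5854 in MKN45, without overlap. After scaling, the difference was 7.11 on the log2 scale, or 138-fold, and it was 5.84 with normexp and 7.37 with 75th percentile scaling. The scaled MKN74 signal of 45.8 was not far above 22.0, the lowest that counts as above background. HSPA1A had no second probe, so that the size of the fold is uncertain. HSPA1B, which encodes the same protein and whose probe shares no more than 7 bases in a row with that of HSPA1A, differed by 0.91, or 1.88-fold. The same gap stood in the Cy5 spots given above, so that SET7/9 siRNA cells showed it as well.

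Several DNAJ genes were also higher in MKN45. DNAJC1, an ER membrane protein that binds ribosomes, had control intensities of 436 and 153 at its 2 probes in MKN74 and of 3305 and 1613 in MKN45, which gave 8.96-fold and 11.2-fold after scaling. DNAJA4, a cytosolic DNAJ protein, went from 868 to 5740 (8.05-fold) and the bright DNAJC3 probe from 422 to 1761 (4.89-fold). DNAJC15 and DNAJC22 were measured in the control of MKN45 alone, at 1884 and 511 against 3.39 and 18.7. With the dim side raised to the lowest signal above background, this gave at least 95.4-fold and at least 23.7-fold, or 6.58 and 4.57 on the log2 scale. These log2 values were 6.58 and 4.56 with quantile normalization and 6.94 and 4.96 with 75th percentile scaling. With normexp they were 4.88 and 2.82, so that the bounds do not hold under normexp. Both genes are named because their differences stood out. DNAJC15 is also known as MCJ, and DNAJC22 is a membrane protein related to a fly protein of endocytosis.

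In the other direction, DNAJB4 went from 92.8 in MKN74 to 19.7 in MKN45 (6.55-fold lower, and -1.15 on the log2 scale with normexp in place of -2.71) and HSPA2 from 229 to 65.2 (4.0-fold lower, and -1.26 on the log2 scale with normexp). DNAJC9, which carries histones H3 and H4, went from 9474 to 2432 (3.21-fold lower). The DNAJA1P5 pseudogene followed with 2583 and 776 (2.74-fold lower), then DNAJA3 with 6732 and 2064 (2.62-fold lower). These 5 had the lowest levels in MKN45 relative to MKN74 among probes measured in both. DNAJA1, which gives the pseudogene its name, went from 5874 to 1947 (2.42-fold lower). How much DNAJA1 RNA bound to the DNAJA1P5 probe was not tested. DNAJC6 was above background in MKN74 alone, with 117 against 3.54, at least 10.1-fold lower in MKN45 on the same terms, or -3.34 on the log2 scale, against -2.69 with 75th percentile scaling and -1.39 with normexp.

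**Figure D4:**
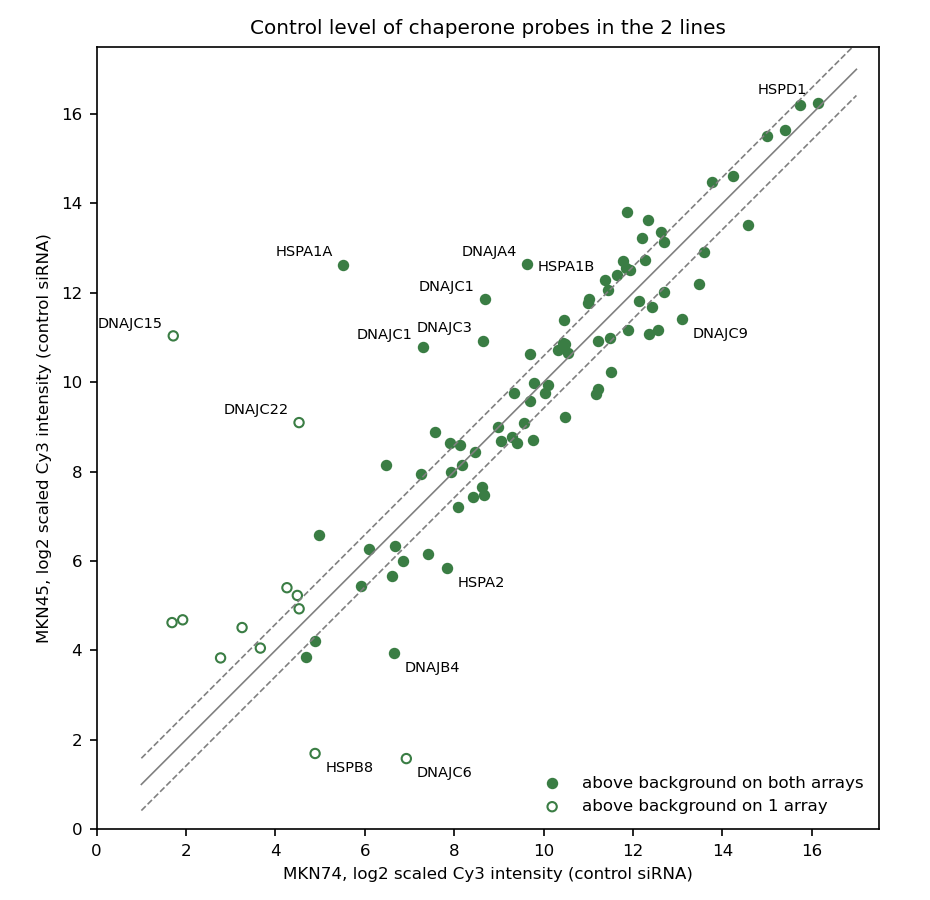
Scaled Cy3 intensity (log2) in control siRNA cells of MKN74 (x axis) and MKN45 (y axis) for each chaperone probe above background on at least 1 array, 1 array per line. The solid line marks equal levels, dashed lines 1.5-fold, and open points were above background on 1 array: HSPA1A lies 7.11 above the line and HSPA1B 0.91.

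The abundant HSP60 and HSP90 genes differed less at their brightest probes, by 0.12 for HSPD1, 0.46 for HSP90AA1 and HSP90AB1 and 0.52 for HSP90B1 on the log2 scale, each higher in MKN45 and under 1.5-fold. With 75th percentile scaling the brightest probes of HSP90AA1 (0.83) and HSP90B1 (0.77) were past 1.5-fold. The dimmer probes of HSP90AA1 (0.72 and 0.92), HSP90AB1 (0.77) and HSP90B1 (0.93) were past it without that change. HSPA8 was an exception, with control intensities of 4190 in MKN74 and 13416 in MKN45 at its bright probe (3.82-fold higher after scaling), and HSPH1 was 2.45-fold higher at its brighter probe. By compartment, with 1 probe per gene, 6 of 35 cytosolic chaperones were at least 1.5-fold higher and 17 lower in MKN45, with a median of -0.50, against 3 higher and 3 lower of 14 in the ER and 1 higher and 2 lower of 9 in mitochondria. Over all genes 4449 of 16114 were higher and 5295 lower, with a median of -0.068. With 75th percentile scaling the cytosolic median was -0.37 where that of all genes was 0.13. For this comparison, 18 of the 20 genes with more than 1 measured probe had their probes on the same side of 0, the exceptions being DNAJC19 (-0.33 and 1.32) and DNAJC30 (-0.48 and 1.68).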

How the data were processed

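RNA of 2 cell lines was measured on 1 two-colour Agilent 4x44K array per line, both on 1 slide and 1 scan. The authors deposited Agilent Feature Extraction 10.7.3.1 output with spot intensity per channel on a linear scale, the log10 ratio (Cy5 to Cy3) and its error after background subtraction and LOWESS dye normalization, and its p-value from the error model. Per the file headers these are per spot. A further table, of log2 ratios, was deposited by the authors and served as an alternative. Probe coordinates are on GRCh37. Ratios were converted to log2, outlier spots were left out, spots of a probe averaged, and probes kept and called at 1.5-fold. Cy3 levels were scaled by Aquantile, a dim side raised to the lowest signal above background. Fits used limma 3.58.1 in R 4.3.3 and Python 3.11.15. Counting and limma steps were tested on simulated data.

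Members, lists and compartments were chosen with earlier results of these data known. Named genes are the 3 stress lists, members past 1.5-fold, the 3 highest and lowest per array, genes whose probes oppose, and the 5 largest control differences each way. Alternatives changed normalization, centring, filter, cutoff and source.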

Additional observations from a re-analysis of the deposited data

Results flagged for a closer look

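At 2 of 81 chaperone probes the knockdown log2 ratio lay beyond its error on opposite sides of 0 in the 2 lines, with 1 array each. How many of all probes did so was not counted. DNAJB5, a cytosolic DNAJ protein, had Cy3 and Cy5 of 166 and 207 in MKN74 and of 80.1 and 67.3 in MKN45, with ratios of 0.32 and -0.25 (errors 0.21 and 0.22), a difference of -0.565. HSPA4L, an HSP110-like exchange factor, was at 0.23 (error 0.21) and -0.22 (error 0.21), a difference of -0.45. Neither difference was tested, and no ratio passed 1.5-fold. With normexp and loess the ratios were 0.19 and -0.13 for DNAJB5 and 0.11 and -0.21 for HSPA4L, none beyond the errors above. A second DNAJB5 probe gave 0.27 (error 0.54) in MKN74 and was not above background in MKN45. Over the 81 chaperone probes measured in both channels on both arrays, the SD of the difference between lines was 0.171, and over all such probes 0.227.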

How the results depend on the processing

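Of 139 values recomputed for counts and medians, 124 held, by a loose rule. A count held within 1.5-fold of the main one, and several were 0 in both. A median held if it moved by less than the SD between spots (0.087 and 0.099). Compartment medians were closer to 0 than that, so that a change of sign could count as held. With normexp and loess the ER median of MKN74 went from -0.0094 to 0.0020. The mitochondrial median of MKN45 went from -0.010 to 0.015. The 3 higher probes of MKN74 became 0 with normexp and loess, with both channels above background, in the deposited table, with an error-model p under 0.01 as well, or at 2-fold, and 5 with no filter. Without dye normalization, an alternative chosen after seeing the data, they became 5 with HSPD1 and HSP90AA1, and the mitochondrial median of MKN74 became 0.18. With no filter there were 2 lower probes in MKN74, 5 lower and 2 higher in MKN45, and 1 lower in both lines (DNAJC5B, above background in neither). At 2-fold, 16 control levels were lower and 13 higher in MKN45. For the counts at 2-fold, with no filter or without dye normalization, no share over all probes was computed. Those counts therefore say nothing particular to chaperones. With normexp and loess, 5 of 88 chaperone probes passed in limma in place of 0, beside 1708 of all 19595 probes. Over all probes, 44.5% of control calls were higher in MKN45, and 55.7% with 75th percentile scaling (chaperones 50% and 57.9%). Of 677 values of named probes, 68 moved by more than the SD between spots, 32 with normexp and loess and 36 without dye normalization. Leaving out 1 array leaves no residual degree of freedom, so that the value is the other array's ratio, with no test. No paired analysis was possible because each line had 1 array, on which knockdown and control already formed the ratio, and no replicate numbers were left to pair. Signal over background limits the probes near background, such as HSPA6 and HSPB8.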
